A study of Rattus norvegicus with 12 samples.

Results

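Gene expression after depletion of RBPMS was compared directly with gene expression after depletion of QKI in rat PAC1 cells, a smooth muscle line that derives from pulmonary artery. The comparison used 6 of the 12 poly(A) RNA-seq libraries of the experiment, 3 from RBPMS knockdown and 3 from QKI knockdown, and all genes of the count table. The 3 libraries that received the control siRNA, named C2, were not part of the contrast. They are given beside it as the level from which each knockdown departed. Both these and the 3 remaining libraries, from RBFOX2 knockdown, entered the estimate of spread and the filter on low counts. All groups were PAC1 cells of the differentiated culture that received 90 pmol of siRNA by reverse transfection. The study reports that the differentiated cells of this experiment were less differentiated than those of its other RNA-seq experiment. Per the labels, a second round followed at 24 h and RNA was taken 48 h after it, whereas the study's methods give longer intervals. Each target was depleted with 1 siRNA in a single cell line, so effects of the target and of the siRNA sequence cannot be told apart. The study describes its replicates as biological, and the p-values measure the spread between these libraries.

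RBPMS and QKI are RNA-binding proteins that regulate alternative splicing. RBPMS is enriched in smooth muscle and binds tandem CAC elements, and it acts as a regulator of the differentiated splicing pattern of these cells. QKI, encoded by the gene listed as Qk, is a STAR family protein that binds ACUAA-like elements and also acts on RNA stability, export and translation. Vascular smooth muscle cells move between a contractile state, rich in actin and myosin of the smooth muscle type, and a proliferative state with more matrix synthesis, so contractile, cell cycle and matrix genes were examined as groups.

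The sense strands of both siRNAs are shown because they define the groups, with the 7 bases that would pair with bases 2 to 8 of a fully complementary guide strand in capitals.
RBPMS siRNA: ggcggcaaagccgagaaGGCGAACa
QKI siRNA: ggacuuacagcUAAACAAc
The RBPMS strand has 25 bases and the QKI strand 19, and the longest run of bases they share in the same orientation is 4 bases.

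Library totals were 111 to 143 M counts in RBPMS knockdown and 111 to 132 M in QKI knockdown, in deposited counts that may not be single fragments, since small counts were mostly even. RBPMS knockdown 2, the deepest of these libraries, stood apart from its replicates. Its counts differed from those of RBPMS knockdown 1 and 3 with a chi-square per degree of freedom of 57.8 and 45.6, against 9.27 between the other two and 6.54 to 11.2 within QKI knockdown. Ribosomal protein genes held 2.41% of its counts, against 2.03% in both of its replicates, 1.80 to 1.89% in QKI knockdown and 1.88 to 1.93% in control. The number of calls is given with and without this library, as are the gene calls that changed and the list medians that changed sign or moved by over 1.5 times when it was left out. The first principal component of the 6 libraries held 92.6% of their variance and separated the knockdowns, and the next component held 3.96%.

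The smooth muscle label of the cells was checked with 9 defining markers, all of which were detected in both knockdowns. Levels are given in CPM, the count of a gene normalised to library size after TMM adjustment. The summed level of the markers was 1104 to 1213 CPM in RBPMS knockdown, 1466 to 1555 CPM in QKI knockdown and 2164 to 2232 CPM in control. Fibroblast markers, which smooth muscle lines also express, summed to 22521 to 27017 CPM, 17096 to 20034 CPM and 11299 to 13023 CPM, and 7 of 8 were tested. Nearly all of this sum came from the type I collagen genes Col1a1 and Col1a2, described below. The median log2 fold change of the 7 tested fibroblast markers against control was −0.165 in RBPMS knockdown and −0.578 in QKI knockdown. The summed endothelial markers (8 of 10 tested) were between 42.3 and 46.0 CPM in both knockdowns, and the epithelial markers (4 of 8) between 36.3 and 44.3 CPM. Leukocyte markers (5 of 10) summed to 52.9 to 60.6 CPM in RBPMS knockdown and 44.2 to 45.5 CPM in QKI knockdown. Neural markers (7 of 9) summed to 35.1 to 43.8 CPM and 23.1 to 24.3 CPM. The leukocyte sum was mostly Cd14 (52.9 ± 4.001 against 38.4 ± 0.753 CPM, log2 fold change of RBPMS knockdown minus QKI knockdown 0.46), whereas the other 4 tested leukocyte markers had log2 fold changes below 0, among them Csf1r (0.904 ± 0.102 against 3.63 ± 0.337 CPM, −1.999) and Cd68 (1.26 ± 0.127 against 1.98 ± 0.0931 CPM, −0.65), both of which passed. The neural sum was mostly Map2 (33.5 ± 4.05 against 17.3 ± 0.660 CPM, 0.95). Of the 7 tested neural markers, 3 passed higher in RBPMS knockdown and 2 higher in QKI knockdown, among the latter Tubb3 (−0.76). Of the 8 tested endothelial markers, 3 passed higher in RBPMS knockdown, among them Cdh5 (0.90) and Esam (0.69). Egfl7 (28.8 ± 1.34 against 33.5 ± 1.01 CPM, −0.22), which held most of the endothelial sum, was the 1 that passed higher in QKI knockdown. The leukocyte genes Ptprc, Adgre1, Itgam and Tyrobp, the endothelial genes Kdr and Emcn and the epithelial genes Krt18, Krt19, Cldn7 and Esrp1 did not exceed 12 counts in any knockdown or control library of the comparison, and Tyrobp was at 0 in all of them. The part of such cells in the differences below was not tested. In RNA from whole cultures, fewer cells of a type and less RNA per cell cannot be told apart.

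The knockdowns differed from each other in a large part of the transcriptome. Of 18438 genes tested, 2248 were called different, 12.2% of those tested, where a call needs an adjusted p below 0.05 (edgeR quasi-likelihood test) and a log2 fold change above 1 or below −1. In all, 1204 genes (6.53%) were higher in RBPMS knockdown and 1044 (5.66%) were higher in QKI knockdown. Without RBPMS knockdown 2 the calls numbered 1186 and 1040. The adjusted p alone was passed by 11249 genes (61.0%), 5905 in the direction of RBPMS knockdown (32.0%) and 5344 in the direction of QKI knockdown (29.0%). The log2 fold changes below are RBPMS knockdown minus QKI knockdown, so a positive value is a higher level after RBPMS depletion, "passed" means an adjusted p below 0.05 and "called" adds the fold. Members of the gene lists below are counted in the same way and are to be read against these shares. The median over all genes was 0.01 and the median absolute value was 0.35. The libraries of the knockdowns did not overlap in 11764 of the genes tested (63.8%) and in 2194 of the called genes (97.6%). Statements below that single genes did not overlap are to be read against these shares.

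The balance between the directions depended on abundance. Among the 10620 genes that averaged 5 CPM or more over the 6 libraries, 574 were called higher in RBPMS knockdown and 119 in QKI knockdown, so 82.8% of the abundant called genes were higher in RBPMS knockdown. Scaling to library totals in place of TMM moved the median of all genes by −0.13, and all differences are relative to that shift. With library totals, 41.4% of the called genes were higher in RBPMS knockdown in place of 53.6%, and the abundant called genes were split into 452 and 192. A further 7764 genes (42.1% of those tested) had a 95% interval of the difference that lay within 0.5 of zero on the log2 scale.

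**Figure D1:**
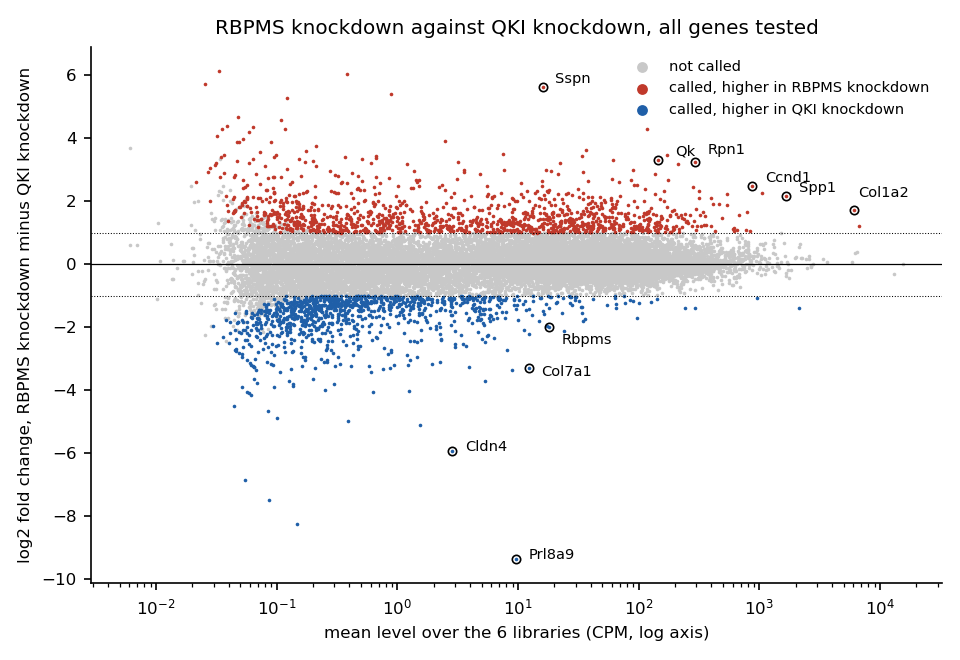
Log2 fold change of RBPMS knockdown minus QKI knockdown against the mean level over the 6 libraries in CPM on a log axis, 1 point per gene tested. Red points are the 1204 genes called higher in RBPMS knockdown and blue points the 1044 called higher in QKI knockdown, dotted lines mark a log2 fold change of 1 and −1, and the right side of the plot, with the abundant genes, holds more red than blue points.

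The control libraries were set beside the called genes as a reference. Control was nearer to RBPMS knockdown than to QKI knockdown in 1680 of the 2248 called genes (74.7%). Of the genes called higher in RBPMS knockdown, 918 (76.2%) had a control level nearer to RBPMS knockdown, and in 506 (42.0%) control was above both knockdowns. Of the genes called higher in QKI knockdown, 762 (73.0%) had a control level nearer to RBPMS knockdown.

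The targeted genes were examined first. Rbpms was at 6.96, 7.11 and 7.54 CPM in RBPMS knockdown 1 to 3 and at 28.5, 28.4 and 30.1 CPM in QKI knockdown 1 to 3. All RBPMS knockdown libraries were below all QKI knockdown libraries, and control, at 38.9 to 43.7 CPM, was above both. The difference was −2.01 on the log2 scale (SE 0.065, edgeR adjusted p = 4.69e-14). Qk was at 272, 253 and 270 CPM in RBPMS knockdown and at 26.0, 26.5 and 27.3 CPM in QKI knockdown. These groups were far apart and control, at 229 to 242 CPM, was below RBPMS knockdown. On the same scale Qk differed by 3.31 (SE 0.040, edgeR adjusted p = 2.06e-19). The labels of the 6 libraries thus matched the targeted genes.

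The paralogue and other splicing regulators differed as well. Rbpms2, which encodes a close relative of RBPMS, was at 23.3, 27.3 and 28.0 CPM in RBPMS knockdown and at 58.1, 53.2 and 58.4 CPM in QKI knockdown. The groups lay on either side of control (37.1 to 38.9 CPM), lower in RBPMS knockdown and higher in QKI knockdown. This gave a log2 fold change of −1.11 (SE 0.058, edgeR adjusted p = 2.99e-11), although how the authors' counting treated reads shared by Rbpms and Rbpms2 is not stated. Mbnl1, a muscleblind splicing regulator, was at 514, 472 and 496 CPM in RBPMS knockdown and at 265, 267 and 278 CPM in QKI knockdown, on either side of control at 376 to 382 CPM (log2 fold change 0.87, SE 0.035, edgeR adjusted p = 9.59e-13). Its relative Mbnl2 was higher in RBPMS knockdown at 201, 198 and 202 CPM against 131, 136 and 137 CPM (0.57, SE 0.032), and Mbnl3 was lower at 41.2, 34.4 and 36.6 CPM against 47.5, 47.1 and 47.5 CPM (−0.34, SE 0.051). Both Mbnl2 and Mbnl3 were separated between the knockdowns.

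Rbfox2 did not pass. It was at 148, 132 and 146 CPM in RBPMS knockdown and at 139, 141 and 137 CPM in QKI knockdown, and the groups overlapped (log2 fold change 0.03, 95% interval −0.06 to 0.12, edgeR adjusted p = 0.567). The interval keeps the difference well under the fold used for a call. Without RBPMS knockdown 2 the value was 0.080 and passed, and with library totals it was −0.10 and passed in that direction (edgeR adjusted p = 0.0476). Rbm20, a splicing regulator of striated muscle titin, was lower in RBPMS knockdown (3.75 ± 0.211 against 6.88 ± 0.559 CPM, SD, n = 3), and Khdrbs3, a STAR family relative of QKI, was higher (24.7 ± 1.53 against 15.7 ± 0.403 CPM). Of 31 tested members of the list of siRNA targets and splicing regulators, 16 passed higher in RBPMS knockdown and 8 higher in QKI knockdown. With library totals the split was 13 and 13, and it was 12 and 11 in the authors' normalised table. The median was 0.10, which became −0.03 with library totals.

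**Figure D2:**
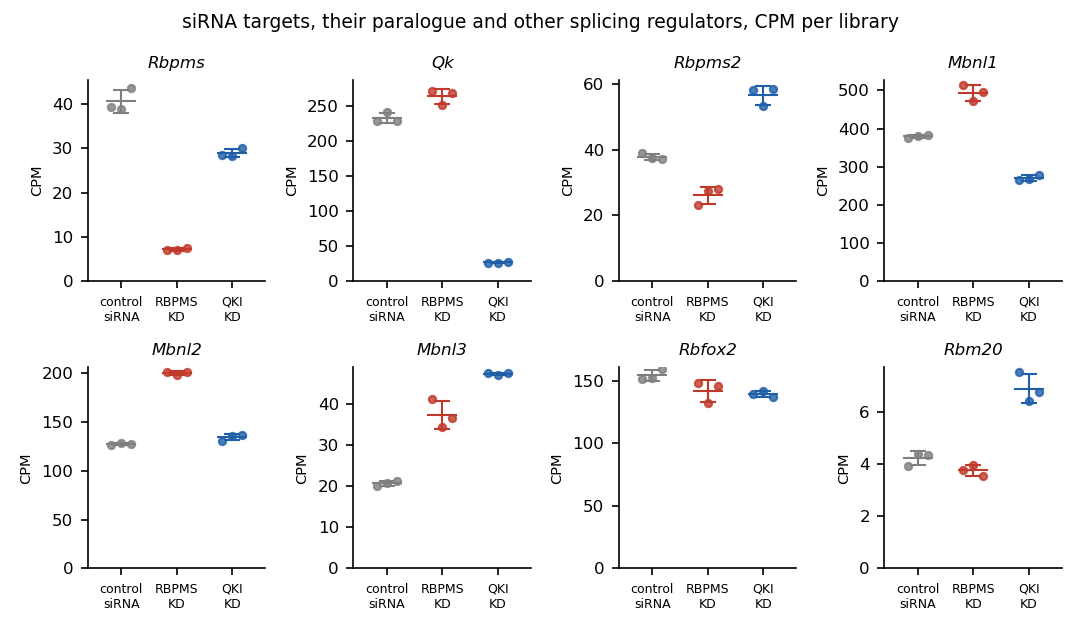
Levels in CPM, on axes that start at 0, of the siRNA targets Rbpms and Qk, of Rbpms2 and of further splicing regulators, with 1 point per library, the mean as a horizontal mark and the SD as a bar for the control siRNA, RBPMS knockdown and QKI knockdown. Rbpms2 and Mbnl1 lie on opposite sides of control in the knockdowns, and Rbfox2 overlaps between them.

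Sspn was the most strongly different gene in the direction of RBPMS knockdown among the called genes that averaged 5 CPM or more. It encodes sarcospan, a membrane protein of the dystrophin complex, and was at 32.6, 29.5 and 31.9 CPM in RBPMS knockdown but at 0.664, 0.774 and 0.468 CPM in QKI knockdown. The RBPMS knockdown libraries were close to control (36.2 to 39.1 CPM). This was a log2 fold change of 5.63 (SE 0.105, edgeR adjusted p = 6.17e-17). Esm1, which encodes the secreted proteoglycan endocan, followed at 222, 223 and 227 CPM against 10.8, 12.2 and 11.4 CPM. Control was at 230 to 235 CPM, so the low level was found in QKI knockdown. Esm1 thus had a log2 fold change of 4.29 (SE 0.042, edgeR adjusted p = 3.27e-20).

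Another secreted protein of this group was encoded by Igfbp7, an insulin-like growth factor binding protein relative. Its levels were 58.2, 62.2 and 67.4 CPM in RBPMS knockdown and 5.80, 6.39 and 5.27 CPM in QKI knockdown. Both groups were below control at 115 to 141 CPM, and QKI knockdown was by far the lower (log2 fold change 3.43, SE 0.085, edgeR adjusted p = 1.8e-15). Rpn1, a subunit of the oligosaccharyltransferase that glycosylates proteins in the endoplasmic reticulum, was at 512, 564 and 514 CPM against 56.2, 56.3 and 55.4 CPM. Here control, at 305 to 309 CPM, lay between the knockdowns, and the log2 fold change was 3.24 (SE 0.039, edgeR adjusted p = 2.06e-19). Hmga2, an architectural chromatin protein, was at 385, 370 and 396 CPM against 42.2, 41.5 and 43.6 CPM. The control level of Hmga2 (326 to 361 CPM) was near that in RBPMS knockdown (log2 fold change 3.18, SE 0.045, edgeR adjusted p = 1.53e-18).

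Further genes among the 10 largest differences in this direction had log2 fold changes of 3.49 for Fcgr2a, an Fc receptor gene, 3.46 for Prrg4, which encodes a transmembrane Gla protein, 3.29 for Abracl, and the value above for Qk. Absence of overlap between the knockdowns was part of the rule that chose the 10 genes of each direction, so it is not a result for them.

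In the direction of QKI knockdown, Prl8a9 stood first. It encodes a member of the prolactin family of the rodent placenta and had 0, 8 and 2 counts in RBPMS knockdown, 6, 2 and 3 counts in control, and 2896, 2145 and 2246 counts in QKI knockdown. The gene was thus at the limit of detection in RBPMS knockdown and control, whereas QKI knockdown reached 20.9, 18.7 and 18.1 CPM. Col7a1, the chain of the anchoring fibril collagen, was at 2.15, 2.59 and 2.04 CPM in RBPMS knockdown and at 21.5, 24.0 and 21.7 CPM in QKI knockdown. Control was below both at 1.37 to 1.48 CPM. The log2 fold change was −3.30 (SE 0.089, edgeR adjusted p = 4.86e-15).

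Tll1, which encodes a tolloid-like protease that processes procollagens and BMP antagonists, was at 1.55, 1.54 and 1.68 CPM against 15.6, 17.7 and 15.6 CPM. It was separated between the knockdowns, with control at 2.75 to 2.88 CPM (log2 fold change −3.35, SE 0.090, edgeR adjusted p = 4.86e-15). Serpinb2, the plasminogen activator inhibitor of the serpin B family, was at 1.504, 1.76 and 1.57 CPM against 9.10, 9.29 and 8.52 CPM, with control at 0.837 to 1.16 CPM. Serpinb2 had a log2 fold change of −2.47 (SE 0.122, edgeR adjusted p = 1.37e-11). The other members of this group of 10 were Arid3a (−2.72), a DNA-binding factor, Ctxn1 (−2.38), Phex (−2.34), a membrane peptidase of phosphate balance, Trim66 (−2.29), Tmeff1 (−2.26) and Vgf (−2.22), a secreted neuropeptide precursor. All 10 genes were low in RBPMS knockdown, between 0 and 4.70 CPM in any library.

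**Figure D3:**
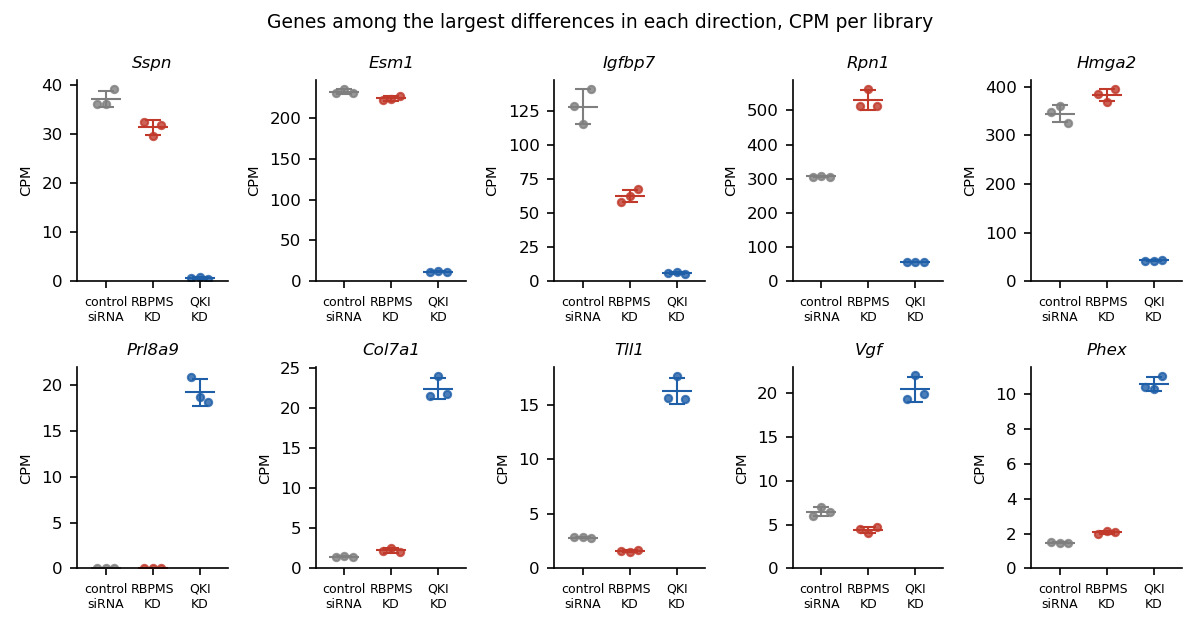
Levels in CPM per library, on axes that start at 0, for 5 of the largest differences in each direction, with the mean as a horizontal mark and the SD as a bar. In the top row QKI knockdown is far below control and RBPMS knockdown, and in the bottom row QKI knockdown is the high group.

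Cell cycle genes were compared because proliferation was a readout of the study. In a separate assay of DNA synthesis, the study reports that RBPMS knockdown and QKI knockdown each raised proliferation above control. Of the D cyclins, which pair with cyclin-dependent kinases to start the cycle, Ccnd1 and Ccnd2 were far higher in RBPMS knockdown and Ccnd3 was not. Ccnd1 was at 1483, 1444 and 1514 CPM in RBPMS knockdown and at 268, 261 and 276 CPM in QKI knockdown. The RBPMS knockdown libraries were above control (1221 to 1322 CPM) and the QKI knockdown libraries far below it. Ccnd1 had a log2 fold change of 2.46 (SE 0.037, edgeR adjusted p = 3.25e-18). Ccnd2 was at 10.6, 8.41 and 9.24 CPM against 1.54, 2.06 and 1.53 CPM, with both groups below control at 26.4 to 30.3 CPM (log2 fold change 2.47, SE 0.109, edgeR adjusted p = 3.36e-12). Ccnd3, named after its values were seen, was at 129 ± 4.98 against 140 ± 2.95 CPM, a small difference in the opposite direction (−0.12, edgeR adjusted p = 0.00907) that did not pass without RBPMS knockdown 3 (−0.0891). Myc, a transcription factor that drives growth, was at 87.4, 87.9 and 88.9 CPM against 34.9, 34.3 and 39.2 CPM. QKI knockdown overlapped control (35.6 to 36.4 CPM) for Myc, and RBPMS knockdown was the high group (log2 fold change 1.29, SE 0.046, edgeR adjusted p = 1.97e-13).

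Regulators that restrain or release the cycle differed in both directions. The retinoblastoma family genes Rb1 (17.5 ± 1.40 against 7.66 ± 0.185 CPM, log2 fold change 1.19) and Rbl1 (49.6 ± 2.95 against 24.1 ± 0.746 CPM, 1.04), which hold back entry into S phase, were called higher in RBPMS knockdown, and the CDK inhibitor gene Cdkn2b passed at 0.85. Cdkn1c, a further CDK inhibitor gene, was called higher in QKI knockdown (−1.87) at a mean of only 0.0695 CPM over the 6 libraries, and it kept passing when QKI knockdown 1 was left out but not when any of the other 5 libraries was. These 4 genes were named after their values were seen. Cdkn1b, which encodes the inhibitor p27, was at 126, 124 and 131 CPM in RBPMS knockdown and 79.2, 80.8 and 79.3 CPM in QKI knockdown, both below control at 150 to 152 CPM (log2 fold change 0.67, SE 0.033, edgeR adjusted p = 1.37e-11). Skp2, the ubiquitin ligase subunit that targets p27, was the reverse at 33.7, 33.2 and 32.4 CPM against 54.6, 57.5 and 54.7 CPM. The knockdowns did not overlap and lay on either side of control (38.7 to 39.0 CPM), with a log2 fold change of −0.75 (SE 0.039, edgeR adjusted p = 3.07e-11). For Cdkn1a, which encodes p21, the levels of 206, 241 and 225 CPM overlapped those of 253, 240 and 252 CPM. Its log2 fold change of −0.15 passed (edgeR adjusted p = 0.0135), but without RBPMS knockdown 1 it was −0.09 and did not pass. Of the 21 tested D cyclins, CDK inhibitors and related regulators, 13 passed higher in RBPMS knockdown and 6 higher in QKI knockdown, 5 and 2 of them were called, and the median was 0.24. Mycn (−1.43) was among those called higher in QKI knockdown, at 0.593 ± 0.0873 against 1.59 ± 0.270 CPM.

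Genes of DNA replication and of mitosis were mostly higher in RBPMS knockdown, by small amounts. Of 50 tested S phase genes, 33 passed higher in RBPMS knockdown and 7 higher in QKI knockdown, with a median log2 fold change of 0.21. Only 2 were called, both higher in RBPMS knockdown. These were the subunits of ribonucleotide reductase, the enzyme that makes deoxynucleotides. Rrm1 was at 279, 270 and 266 CPM in RBPMS knockdown and 91.3, 90.7 and 92.5 CPM in QKI knockdown, on either side of control at 169 to 173 CPM (log2 fold change 1.57, SE 0.031, edgeR adjusted p = 1.16e-16). Rrm2 was at 117, 121 and 110 CPM against 58.1, 58.1 and 57.1 CPM (1.01, SE 0.038). The catalytic DNA polymerase gene Pole, at 75.7, 63.2 and 72.7 CPM against 34.6, 36.2 and 35.7 CPM, was just under the fold (0.99). In the other direction the differences were small, with E2f2 at −0.38, Cdk2 at −0.34 and the clamp loader gene Rfc2 at −0.28.

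Of 60 tested mitosis genes, 50 passed higher in RBPMS knockdown and 3 higher in QKI knockdown (1 without QKI knockdown 2), with a median of 0.27. The motor protein gene Kif23, needed for cytokinesis, was at 240, 238 and 227 CPM in RBPMS knockdown and 102, 101 and 102 CPM in QKI knockdown. Control, at 200 to 205 CPM, was nearer to RBPMS knockdown (log2 fold change 1.21, SE 0.031, edgeR adjusted p = 3.23e-15). Kif14, another cytokinesis motor, was at 35.1 ± 3.18 against 15.7 ± 0.661 CPM (1.16), and Nuf2, of the kinetochore, at 68.2 ± 2.38 against 34.8 ± 0.282 CPM (0.97). The largest difference in the other direction was in Hmgb2, a chromatin protein (−0.24).

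The proliferation marker Mki67 was at 517, 426 and 492 CPM in RBPMS knockdown and at 406, 407 and 411 CPM in QKI knockdown. The groups did not overlap, but RBPMS knockdown 2 was close to the QKI knockdown libraries and within control (412 to 434 CPM). The log2 fold change was 0.23 (SE 0.052, edgeR adjusted p = 0.00105), and with library totals it was 0.10 and did not pass, nor did the value of 0.052 in the authors' normalised table. With library totals the S phase list split into 25 and 14 and the mitosis list into 36 and 6, and without RBPMS knockdown 2 into 32 and 7 and into 49 and 2. The medians of the lists against control were 0.35 for S phase and 0.33 for mitosis in RBPMS knockdown, and 0.13 and 0.02 in QKI knockdown, in comparisons that share the control libraries.

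**Figure D4:**
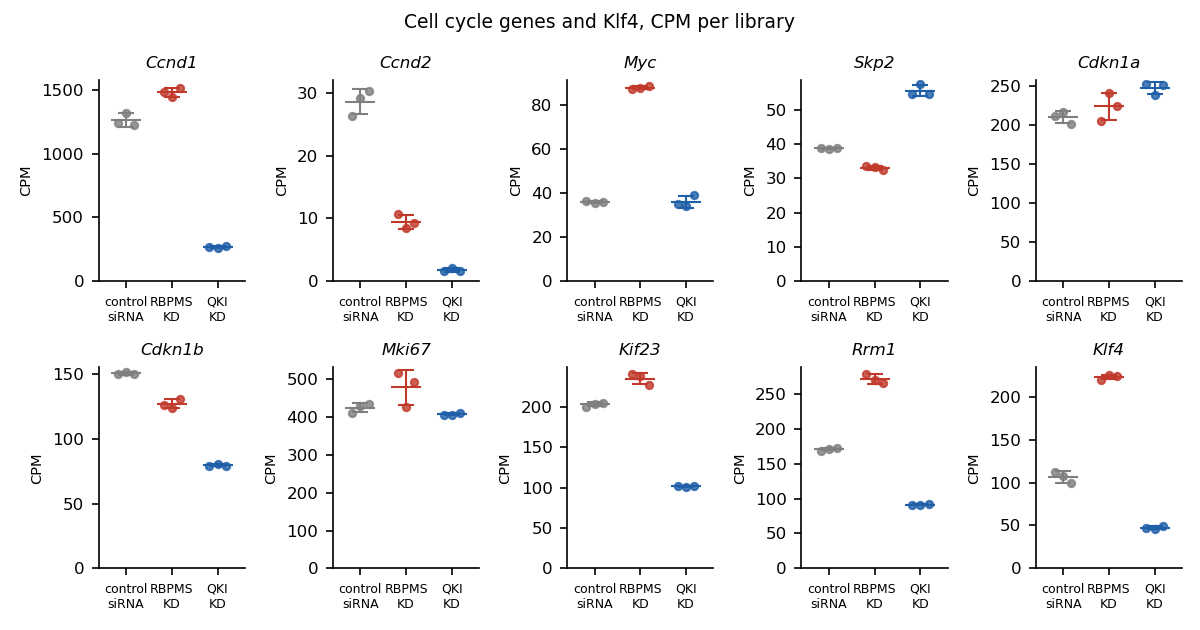
Levels in CPM per library, on axes that start at 0, for cell cycle genes and Klf4, with the mean as a horizontal mark and the SD as a bar. Ccnd1 and Klf4 are low in QKI knockdown and above control in RBPMS knockdown, Skp2 is the reverse, and Mki67 and Cdkn1a differ little between the groups.

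The contractile genes did not move as 1 block. Acta2, the smooth muscle actin, was at 303, 330 and 313 CPM in RBPMS knockdown and at 435, 425 and 473 CPM in QKI knockdown, both well below control at 973 to 1006 CPM. The RBPMS knockdown libraries were the lower group for Acta2 (log2 fold change −0.49, SE 0.054, edgeR adjusted p = 4.61e-07). Tagln, which encodes the actin-binding protein SM22, was at 488, 564 and 511 CPM against 714, 679 and 718 CPM, and here QKI knockdown overlapped control at 670 to 709 CPM (−0.43, SE 0.054, edgeR adjusted p = 1.95e-06). The regulatory light chain gene Myl9 (129 ± 8.36 against 192 ± 4.27 CPM, log2 fold change −0.58) and the calponin gene Cnn1 (2.59 ± 0.231 against 4.63 ± 0.221 CPM, −0.84) were also lower in RBPMS knockdown.

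Other genes of the apparatus went the other way. Pdlim5, a PDZ and LIM protein of the Z-disc and actin cables, was at 319, 288 and 309 CPM in RBPMS knockdown and at 99.1, 101 and 104 CPM in QKI knockdown. The RBPMS knockdown libraries were just below control (319 to 351 CPM), with RBPMS knockdown 1 at its edge (log2 fold change 1.59, SE 0.044, edgeR adjusted p = 7.54e-15). Synpo2, an actin-bundling protein, was at 29.1, 21.7 and 28.2 CPM against 9.07, 9.27 and 9.39 CPM (1.51). Lmod1, the smooth muscle leiomodin that nucleates actin filaments, was at 22.3, 21.7 and 22.2 CPM against 9.11, 9.07 and 10.3 CPM, both below control at 47.5 to 52.6 CPM (1.22). The smooth muscle myosin heavy chain gene Myh11 did not pass, at 8.67, 7.69 and 8.33 CPM against 7.07, 6.59 and 8.48 CPM (0.15, 95% interval −0.01 to 0.32, edgeR adjusted p = 0.106). Its groups overlapped, and without RBPMS knockdown 2 or without QKI knockdown 3 the value passed, at 0.20 and 0.26. Of 24 tested members of the contractile list, 13 passed higher in RBPMS knockdown and 6 higher in QKI knockdown, which became 12 and 9 with library totals. The 3 and 0 that were called are 12.5% of the list, beside 12.2% of all genes, and the median was 0.23. Of the 9 defining smooth muscle markers, 2 passed higher in RBPMS knockdown and 6 higher in QKI knockdown. These markers share members with the contractile list, among them Acta2, Myl9, Cnn1 and Lmod1, so the counts are not independent.

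Among transcription factors of smooth muscle, Klf4, a repressor of contractile genes, showed the largest difference. It was at 220, 225 and 224 CPM in RBPMS knockdown and at 47.3, 45.5 and 49.6 CPM in QKI knockdown. Control lay between them at 99.4 to 113 CPM, so the knockdowns departed from control in opposite directions. The log2 fold change was 2.23 (SE 0.048, edgeR adjusted p = 3.09e-16). Prrx1, a mesenchymal homeobox factor, was at 179 ± 6.65 against 64.3 ± 1.79 CPM (1.48), and Mef2a, a MADS-box factor of muscle, at 228 ± 11.5 against 83.2 ± 1.54 CPM (1.45). Myocd, the coactivator of SRF on contractile genes, was in the opposite direction at 26.4, 22.1 and 25.9 CPM against 37.9, 38.9 and 37.4 CPM. For Myocd the groups did not overlap, and RBPMS knockdown overlapped control at 20.8 to 23.2 CPM (−0.62, SE 0.058, edgeR adjusted p = 6.23e-08). The ternary complex factor gene Elk1 (−0.56) and Tead3 (−0.44) were also higher in QKI knockdown. In the whole list of 22 tested factors, 15 passed higher in RBPMS knockdown and 5 higher in QKI knockdown, 6 and 0 were called, and the median was 0.41.

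The dystrophin complex, which links the actin cytoskeleton to laminin outside the cell, held Sspn, described above with the largest differences. The delta-sarcoglycan gene Sgcd was lower in QKI knockdown as well (2.44 ± 0.144 against 0.700 ± 0.215 CPM, log2 fold change 1.80). The core of the complex differed little, with dystroglycan (Dag1) at −0.20 and epsilon-sarcoglycan (Sgce) at −0.29. Of 17 tested members, 11 passed higher in RBPMS knockdown and 2 higher in QKI knockdown (10 and 5 with library totals), and the median was 0.36.

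Adhesion genes differed in both directions, more often with the higher level in RBPMS knockdown. Itga7, the laminin receptor subunit of muscle, was at 166, 159 and 170 CPM in RBPMS knockdown and at 28.7, 29.5 and 28.2 CPM in QKI knockdown, with control above both at 217 to 221 CPM. The difference was far larger than the spread (log2 fold change 2.52, SE 0.036, edgeR adjusted p = 1.46e-18). Cav1, which encodes the coat protein of caveolae, was at 651, 646 and 625 CPM against 150, 153 and 148 CPM, on either side of control at 535 to 561 CPM (2.09, SE 0.033, edgeR adjusted p = 5.2e-18). The integrin subunit gene Itgb8, which serves in activation of latent TGF-beta, was at 11.9 ± 1.69 against 3.32 ± 0.502 CPM (1.84), both below control at 42.8 CPM. Higher in QKI knockdown were Itga8, an integrin of smooth muscle (−0.97), the matrix protein gene Svep1 (−0.94) and Parvb, of the integrin-linked kinase complex (−0.57). Of 58 tested integrin and focal adhesion genes, 33 passed higher in RBPMS knockdown and 14 higher in QKI knockdown, 10 and 1 were called, and the median was 0.24. With library totals 25 and 18 passed and the median was 0.11.

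Matrix genes differed in both directions. Spp1, which encodes osteopontin, a marker of the synthetic state, was at 2400, 2885 and 2872 CPM in RBPMS knockdown and at 602, 551 and 688 CPM in QKI knockdown. Both groups were below control at 3397 to 3959 CPM, and QKI knockdown was the lower (log2 fold change 2.15, SE 0.079, edgeR adjusted p = 2.77e-13). Col6a3, a chain of the beaded filament collagen, was at 37.9, 27.2 and 34.4 CPM against 4.24, 4.72 and 3.87 CPM (2.95), and Mgp, the inhibitor of arterial calcification, was at 1.71 ± 0.403 against 0.306 ± 0.045 CPM (2.48). Besides Col7a1, Col16a1, a fibril-associated collagen, was higher in QKI knockdown (31.8 ± 0.916 against 78.0 ± 3.46 CPM, −1.29), as was Islr (−0.82).

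The chains of type I collagen, which assemble into 1 fibril, differed unequally. Col1a2 was at 9938, 8574 and 9378 CPM in RBPMS knockdown and at 2723, 3068 and 2618 CPM in QKI knockdown. These groups lay on either side of control, at 3938 to 4547 CPM (log2 fold change 1.73, SE 0.064, edgeR adjusted p = 2.68e-13). Col1a1, named here after its values were seen, was at 17047, 13915 and 15950 CPM in RBPMS knockdown and at 15219, 16937 and 14453 CPM in QKI knockdown, so the groups overlapped, both above control at 7292 to 8388 CPM. Its log2 fold change was 0.01 (95% interval −0.14 to 0.16, edgeR adjusted p = 0.918), and it was below 0 with RLE size factors or library totals. Of 77 tested collagens and other matrix genes, 39 passed higher in RBPMS knockdown and 22 higher in QKI knockdown, 19 and 4 were called, and the median was 0.16.

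The proteases and inhibitors that remodel the matrix had the lowest median of the functional lists (−0.20), with 11 of 41 tested members passed higher in RBPMS knockdown and 20 passed higher in QKI knockdown (8 and 25 with library totals). Serpine2, which encodes the serine protease inhibitor protease nexin, was at 494, 509 and 543 CPM in RBPMS knockdown and 115, 121 and 129 CPM in QKI knockdown, without overlap (log2 fold change 2.08, SE 0.050). Timp2, an inhibitor of metalloproteases, was also higher in RBPMS knockdown (827 ± 15.5 against 384 ± 8.13 CPM, 1.11), as was Adamts15 (1.86). Mmp17, a membrane-anchored metalloprotease gene (−1.09), and Adamts5, an aggrecanase gene (−0.95), were higher in QKI knockdown.

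Growth factor signalling genes differed in both directions. Csf1, the macrophage colony-stimulating factor gene, was at 452, 434 and 482 CPM in RBPMS knockdown and at 133, 129 and 143 CPM in QKI knockdown, on either side of control at 268 to 298 CPM. This was a log2 fold change of 1.76 (SE 0.048, edgeR adjusted p = 6e-15). Inhbb, which encodes an activin subunit, was also higher in RBPMS knockdown (25.5 ± 1.92 against 7.36 ± 0.119 CPM, 1.79). FGF receptor genes were called in both directions. Fgfr1, named after its values were seen, was higher in RBPMS knockdown (29.2 ± 1.56 against 9.46 ± 0.411 CPM, 1.62). Fgfr3 was at 18.6, 14.5 and 18.5 CPM in RBPMS knockdown, overlapping control at 16.9 to 17.7 CPM, and at 48.0, 57.7 and 46.8 CPM in QKI knockdown (−1.56, SE 0.085, edgeR adjusted p = 5.33e-11), and Fgfr2 was at 2.68 ± 0.0588 against 8.80 ± 0.765 CPM (−1.71). Vegfd, a ligand of lymphatic growth, was at 2.18 ± 0.257 against 8.30 ± 1.04 CPM (−1.93). Of 64 tested growth factors and receptors, 30 passed higher in RBPMS knockdown and 13 higher in QKI knockdown, together 67.2% of the list beside 61.0% of all genes, 11 and 4 were called, and the median was 0.17. With library totals 26 and 19 passed.

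In the cGMP pathway, through which nitric oxide and natriuretic peptides relax vessels, the receptor types differed in opposite directions. Gucy1b1, the beta subunit of the soluble guanylate cyclase that senses nitric oxide, was at 55.5, 56.5 and 58.3 CPM in RBPMS knockdown and at 10.98, 12.4 and 11.9 CPM in QKI knockdown. Both groups were far below control at 231 to 306 CPM, with QKI knockdown the lower (log2 fold change 2.27, SE 0.086, edgeR adjusted p = 4.17e-13). The alpha subunit gene Gucy1a1 was at 4.27, 3.47 and 4.14 CPM against 1.10, 1.48 and 1.33 CPM (1.60, SE 0.229, edgeR adjusted p = 9.96e-06). The phosphodiesterase gene Pde1c was also higher in RBPMS knockdown (2.44). The natriuretic peptide receptor genes were higher in QKI knockdown, with Npr2 at 3.86, 4.03 and 3.78 CPM against 9.83, 10.2 and 9.95 CPM (−1.36), Npr1 at −0.90 and Npr3 at −0.76. Of 17 tested members, 7 passed higher in RBPMS knockdown and 6 higher in QKI knockdown, and the median of 0.11 became −0.02 in the normalised table of the authors and after scaling to library totals, and 0.21 without RBPMS knockdown 2.

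Inflammatory genes were compared with the interleukin 1 receptors taken apart. Il1rl1, the receptor of interleukin 33, was at 207, 197 and 207 CPM in RBPMS knockdown and at 291, 343 and 261 CPM in QKI knockdown. Both groups were far above control at 12.3 to 12.6 CPM, and they did not overlap each other (log2 fold change −0.55, SE 0.066, edgeR adjusted p = 1.39e-06). Il1rl2, the receptor of interleukin 36, was at 3.47, 4.55 and 4.78 CPM against 16.5, 18.8 and 19.6 CPM, again with both groups above control at 0.536 to 0.806 CPM (−2.10, SE 0.108, edgeR adjusted p = 2.53e-11). The signalling receptor gene Il1r1 differed by −0.37 and the co-receptor gene Il1rap by 0.72. Of 16 tested members of the family, 5 passed higher in RBPMS knockdown and 3 higher in QKI knockdown (4 and 5 with library totals), the median was −0.05, and the ligand genes Il1a, Il1b, Il36a, Il36b and Il36g had at most 5 counts in any knockdown or control library.

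Chemokines and inflammatory mediators were more often higher in RBPMS knockdown, with 24 of 40 passed in that direction and 7 in the other, 9 and 2 called, and a median of 0.34. Ptgs2, which encodes the inducible cyclooxygenase, was at 93.9, 91.0 and 107 CPM in RBPMS knockdown and at 27.3, 24.4 and 34.0 CPM in QKI knockdown, which overlapped control at 16.6 to 28.1 CPM (log2 fold change 1.77, SE 0.139, edgeR adjusted p = 6.44e-09). The adhesion molecule gene Vcam1 was at 42.6, 43.2 and 42.1 CPM against 10.1, 8.995 and 7.95 CPM, on either side of control at 28.7 to 34.2 CPM (2.24, SE 0.074, edgeR adjusted p = 6.66e-14). Ccl7, a monocyte chemoattractant gene, was at 17.4 ± 1.77 against 3.72 ± 0.228 CPM (2.23). In the opposite direction, the chemokine gene Cxcl12 was at 464 ± 33.7 against 727 ± 21.8 CPM (−0.65). Of 35 tested interferon response genes, 17 passed higher in RBPMS knockdown and 9 higher in QKI knockdown, 7 and 0 were called, and the median was 0.24. Leaving aside genes that averaged below 1 CPM, the antiviral genes Oasl (1.76), Mx2 (1.76) and Oasl2 (1.51) led the first group, and Bst2, which tethers virus particles (−0.91), the second.

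Targets of the aryl hydrocarbon receptor, a sensor of planar aromatic ligands, differed in opposite directions. Cyp1a1, its classical cytochrome P450 target, was at 12.5, 16.2 and 17.7 CPM in RBPMS knockdown and at 50.3, 50.2 and 61.3 CPM in QKI knockdown. Both groups were above control, at 0.0881 to 0.698 CPM, and QKI knockdown was the higher (log2 fold change −1.80, SE 0.170, edgeR adjusted p = 6.98e-08). Cyp1b1, a related enzyme gene, was the reverse, at 1677, 1650 and 1915 CPM against 349, 366 and 374 CPM. RBPMS knockdown overlapped control at 1672 to 1889 CPM (2.27, SE 0.060, edgeR adjusted p = 4.09e-15). Aldh3a1, an aldehyde dehydrogenase gene, was at 31.7, 45.2 and 40.3 CPM against 15.1, 15.1 and 17.7 CPM, both above control at 2.06 to 2.54 CPM (1.29, SE 0.0997, edgeR adjusted p = 5.09e-09). The receptor gene Ahr was higher in RBPMS knockdown (86.9 ± 3.04 against 50.5 ± 3.24 CPM, 0.78), and its partner Arnt differed by −0.19. Of 10 tested members, 6 passed higher in RBPMS knockdown and 3 higher in QKI knockdown.

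Genes of the unfolded protein and ATF4 response, which restores protein folding and amino acid supply, had a median of 0.47. Of 29 tested, 21 passed higher in RBPMS knockdown and 5 higher in QKI knockdown, and 2 and 0 were called. Psat1, an enzyme of serine synthesis, was at 172, 178 and 166 CPM in RBPMS knockdown and at 56.2, 57.2 and 58.1 CPM in QKI knockdown, on either side of control at 103 to 116 CPM (log2 fold change 1.59, SE 0.042, edgeR adjusted p = 4.09e-15). Ddit4, an inhibitor of mTORC1, was also called (1.55), and the chaperone gene Calr was at 2012 ± 85.0 against 1011 ± 24.5 CPM (0.99).

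The remaining metabolic and stress lists had medians between −0.01 and 0.15. The sterol and fatty acid synthesis list of 29 tested genes had 12 passed in the direction of RBPMS knockdown and 13 in the other (6 and 15 with library totals) and a median of −0.01, with Ebp at 1.06, Hmgcs1 at 0.75 and Insig1, the sterol-sensing retention protein, at −0.83. Of 37 tested glycolysis and hypoxia genes, 21 and 10 passed (15 and 12 with library totals), the median was 0.15 (0.079 without RBPMS knockdown 2), and Ndrg1 stood out at 65.0 ± 3.87 against 16.4 ± 1.93 CPM (1.99). NRF2 targets (23 tested, 9 and 7 passed) and p53 targets (24 tested, 10 and 8 passed, 8 and 12 with library totals) had medians of 0.01 each that turned negative with RLE size factors, library totals, the authors' table and without RBPMS knockdown 2. The YAP and TEAD targets (27 tested, 14 and 7 passed) had a median of 0.12, which was −0.01 with library totals, where 11 and 11 passed. The split was 12 and 11 in the authors' normalised values. They held Crim1, a BMP-binding membrane protein gene, at 202, 175 and 196 CPM against 36.3, 35.3 and 37.5 CPM (2.39, SE 0.056, edgeR adjusted p = 8.89e-16). They also held F3, which encodes tissue factor, at 8.01, 9.88 and 8.85 CPM against 39.9, 36.5 and 39.98 CPM (−2.12, SE 0.069, edgeR adjusted p = 5.68e-14). Both genes were separated between the knockdowns.

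**Figure D5:**
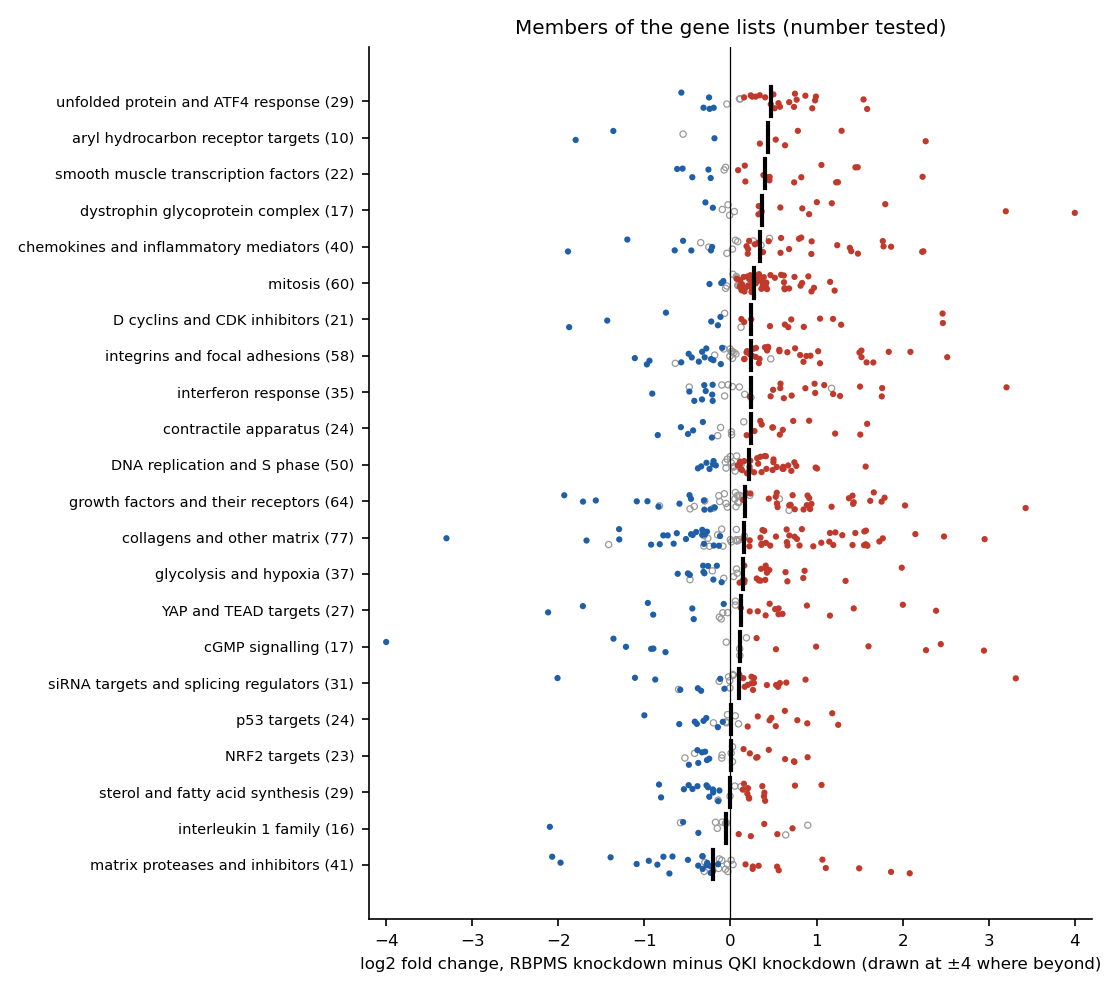
Log2 fold change of RBPMS knockdown minus QKI knockdown for the tested members of the functional gene lists, 1 point per gene, with values beyond 4 or −4 drawn at 4 or −4. Red and blue points passed an adjusted p of 0.05 (higher in RBPMS knockdown and in QKI knockdown), open grey points did not, and the black bars are the list medians, which run from −0.20 to 0.47.

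The epithelial markers held a further difference. Cldn4, a tight junction claudin gene, was at 0.0940, 0.0887 and 0.0910 CPM in RBPMS knockdown and at 4.94, 6.61 and 5.32 CPM in QKI knockdown, with control at 0.278 to 0.524 CPM (log2 fold change −5.93, SE 0.264, edgeR adjusted p = 3.42e-12). Epcam and Cdh1, at means of 0.20 and 0.24 CPM over the 6 libraries, were also called higher in QKI knockdown, whereas Krt8 was at 39.9 ± 3.998 against 32.3 ± 1.04 CPM (0.31).

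Genes that departed from control in both knockdowns but hardly differed between them were chosen by their change against control and a direct difference under 0.25. Arpc5, a subunit of the actin-nucleating ARP2/3 complex, was at 383, 410 and 400 CPM in RBPMS knockdown and 372, 365 and 390 CPM in QKI knockdown, against 59.3 to 59.8 CPM in control. The knockdowns overlapped, with a log2 fold change of 0.08 (95% interval 0.01 to 0.16, edgeR adjusted p = 0.052), and the direction flipped after scaling to library totals, where it did not pass, and in the normalised table of the authors, where it passed at −0.0973 (limma adjusted p = 0.0193). Ssr2, a subunit of the translocon-associated complex, was at 247, 291 and 251 CPM and at 269, 272 and 268 CPM, against 48.0 to 49.3 CPM in control (−0.04, 95% interval −0.13 to 0.06). Leaving out a library changed these calls: Arpc5 passed at 0.11 without RBPMS knockdown 1 or QKI knockdown 3, and Ssr2 passed at −0.11 without RBPMS knockdown 2 and turned positive, without passing, when RBPMS knockdown 1 was left out. The EGF receptor ligand gene Ereg was at 30.6 ± 1.17 and 32.1 ± 2.33 CPM, against 6.10 CPM in control (−0.07, 95% interval −0.21 to 0.07).

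Among genes below control in both knockdowns, the epoxide hydrolase gene Ephx1 was at 4.77, 5.29 and 5.25 CPM in RBPMS knockdown and 5.78, 5.71 and 4.90 CPM in QKI knockdown, against 29.5 to 38.6 CPM in control (−0.10, 95% interval −0.31 to 0.12). Podxl2 (−0.10, 95% interval −0.30 to 0.09) and the potassium channel subunit gene Kcne4 (−0.08, 95% interval −0.46 to 0.29) were the next. The groups overlapped for all 3 genes. These intervals leave room for small differences, and with library totals Ssr2, Ereg and Podxl2 passed, at −0.17, −0.20 and −0.23.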

How the data were processed

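RNA was measured by strand-specific, poly(A)-selected, paired-end RNA-seq. The authors aligned reads to the rat assembly mRatBN7.2 with STAR (2.5.2a in the submitters' processing notes) and deposited raw counts for 33294 gene symbols, made with featureCounts. They also deposited a quantile-normalised signal for 22320 genes, used here only as an alternative. Handling of reads shared by genes is not stated. Groups and replicate numbers came from sample titles. Counts from 1 to 19 were mostly even (68.0%, against 51.1% above 1000), so the deposited counts may hold both mates of a pair or may have been scaled, printed totals and small counts may not be numbers of fragments, and halved counts were also tested.

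Deposited counts were fitted with edgeR (version 4.0.16, R 4.3.3) on 18438 genes kept by filterByExpr over 12 libraries, with TMM scaling and 1 coefficient per group. RBPMS knockdown minus QKI knockdown was tested by glmQLFTest, two-sided, with Benjamini-Hochberg adjustment over all genes. Thresholds were those of the study, an adjusted p below 0.05 and a log2 fold change above 1 or below −1. SEs are the absolute log2 fold change over the square root of F. Levels are CPM, not divided by gene length, with the SD of 3 libraries. An exact permutation test of 1 gene in 3 against 3 libraries cannot go below 0.1, so the adjusted p-values rest on the model. No replicate pair was within sampling noise, and the fit was tested on simulated data.

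Genes were named by a rule: siRNA targets with the Rbpms, Rbfox and Mbnl relatives, the 10 largest called differences per direction (mean of at least 5 CPM, no overlap), up to 3 genes per direction of each list (mean of at least 1 CPM), proliferation and contractile markers, and genes called against control in both knockdowns with opposite signs, or with equal signs and a direct difference under 0.25. Members and lists were chosen with earlier results of these data known. Alternatives were RLE size factors, library totals, no filter, a mean of at least 200 counts, the 6 libraries alone, a replicate block, halved counts, DESeq2 1.42.0, glmTreat, the adjusted p alone, the normalised table with limma 3.58.1 and a pseudocount of 1 or 8, and leaving out each library. Some genes that met the rule are not reported here, and splicing was not analysed here.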

Additional observations from a re-analysis of the deposited data

Results flagged for a closer look

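Klf4 and Anxa8 drew attention because they were called against control with opposite signs in the knockdowns. The direct test of the difference also passed, an outcome that this choice nearly fixed. Klf4 was at 223 ± 2.57 CPM in RBPMS knockdown, 47.5 ± 2.03 CPM in QKI knockdown and 107 CPM in control (SD, n = 3), with a log2 fold change of 2.23 between the knockdowns (SE 0.048, edgeR adjusted p = 3.09e-16). Anxa8, which encodes an annexin that binds membranes in the presence of calcium, was at 13.1, 14.5 and 13.3 CPM in RBPMS knockdown, 1.98, 1.51 and 1.71 CPM in QKI knockdown and 4.83 to 5.74 CPM in control. The log2 fold change of Anxa8 was 2.97 (SE 0.093, edgeR adjusted p = 3.37e-14), and neither gene overlapped between any of the 3 groups.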

How the results depend on the processing

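The number of genes called (2248, with 1204 higher in RBPMS knockdown and 1044 in QKI knockdown) depended on the filter, on the rule for a call and on the pseudocount. With a mean of at least 200 counts it was 929 (676 and 253), where fewer genes were tested. With glmTreat against a log2 fold change of 1 it was 933 (638 and 295), with the adjusted p alone 11249 (5905 and 5344), and in the authors' normalised table with a pseudocount of 8 it was 1438 (871 and 567). The share higher in RBPMS knockdown was 72.8% with the count filter and 68.4% with glmTreat. Leaving out 1 library gave 2135 to 2230 calls, and halved counts gave 2001, with DESeq2 at 2243. Replicate numbers did not pair the libraries, since deviations of same-numbered libraries correlated at −0.136, −0.087 and 0.182. A replicate block gave 2209 calls (1193 and 1016), and a block in the 6 libraries alone, an alternative chosen after seeing the data, gave 2046. Of the gene-level values recomputed for named genes, those that changed direction were in genes that had not passed, and the cause was not tested. For Rbfox2 the values were −0.10 with library totals, which passed, −0.0152 with the count filter, −0.00103 to 0.0795 without 1 library (RBPMS knockdown 1 and 2) and −0.0463 in the normalised table with either pseudocount. For Arpc5 they were −0.0479 with library totals and −0.0973 in the normalised table, which passed, and for Ssr2 the values without 1 library ran from −0.11 to 0.00853 (without RBPMS knockdown 2 and 1). Col1a1 gave −0.00593 with RLE size factors and with DESeq2, −0.12 with library totals, −0.0344 with the count filter, and −0.0563 to 0.0868 without 1 library, with values below 0 without RBPMS knockdown 1 or 3 or QKI knockdown 1 or 3. Of the other values of named genes under the alternatives, 2312 kept their direction and their side of the threshold, 11 newly passed and 12 no longer passed. For the gene lists, 37 of 952 counts of passed members per direction moved by over 1.5 times, 7 of 56 with library totals and 7 with the count filter, among them those of mitosis, S phase, YAP targets and splicing regulators. Of 476 list medians, 78 moved by more than the spread between libraries, 21 of 28 with library totals and 13 of 28 in the normalised table with a pseudocount of 1. Depth limits the 916 called genes with a mean below 50 counts, and 65 called genes had 1 group at 3 counts or fewer in each library.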

Other observations

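Further genes with opposite departures from control were at low levels. In all, 29 genes were called against control in both knockdowns with opposite signs, 20 of them higher in RBPMS knockdown and 9 higher in QKI knockdown. That choice nearly fixed a call in the direct comparison, which all 29 met, so it is not separate support. Only Klf4 and Anxa8 had a mean of at least 5 CPM. Among the others were the aldo-keto reductase gene Akr1c15, at means of 5.36 CPM in RBPMS knockdown, 0.83 CPM in QKI knockdown and 2.40 CPM in control, and Dnai2, an axonemal dynein gene, at 1.04, 6.35 and 2.67 CPM. Both were named after their values were seen.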
